A study of Mus musculus with 2 samples.

Results

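CD8 αβ T cells of the mouse small intestine lamina propria were taken from 2 droplet libraries by their transcripts. A cell counted as one when it had at least 1 unique molecular identifier (UMI) of the CD3 genes Cd3d, Cd3e or Cd3g, at least 1 of Cd8a and at least 1 of Cd8b1, no UMI of Trdc or Foxp3, and under 15% of its UMIs on 7 immunoglobulin genes. The rule found 275 cells among 12526 kept cells of the CD4-Cre library and 98 among 12594 kept cells of the F/F library, together 373 of 25120. Cd4 was no part of the rule.

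The CD4-Cre library came from mice with floxed Aster-A alleles and the CD4-Cre transgene (CD4-Cre; Aster-A F/F), and the F/F library from littermates with the floxed alleles alone (Aster-A F/F). All were females aged 10 to 12 weeks that had fasted for 16 h and had then been gavaged with olive oil for 2 h. The sort took live CD45+ cells that lacked EPCAM, Ter119 and CD31, 100000 per animal, and each library pooled 3 animals of a genotype. Each genotype was therefore 1 sample, values are given without a test between genotypes, and the intervals are exact 95% intervals that cover counting error only, not differences between mice. CD4-Cre is driven by Cd4 regulatory sequence that is active at the thymic stage when αβ T cells carry both coreceptors, so CD8 αβ T cells descend from cells in which the transgene has acted, although mature CD8 T cells do not make CD4.

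CD8 αβ T cells recognise peptides on MHC class I through the αβ T cell receptor, with a coreceptor made of a CD8α and a CD8β chain. In the gut wall many of them are resident: the integrin αE chain, encoded by Itgae, pairs with β7 and binds E-cadherin on epithelial cells, while cells that recirculate leave through S1PR1 and enter lymph nodes with the help of CCR7. They kill target cells with granzymes and perforin, and they signal to other leukocytes with chemokines such as CCL5 and XCL1. Aster-A, encoded by Gramd1a, is an endoplasmic reticulum protein that carries cholesterol from the plasma membrane without vesicles.

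The members had a median of 4186 UMIs and 1622 genes per cell in the CD4-Cre library and 4279.5 UMIs and 1625.5 genes in the F/F library, and their summed UMIs were 1350598 and 505505, so values of the F/F library rest on fewer molecules. Of the barcodes kept, 47 occurred in both libraries, none of them a member. Doublets were not removed. For each coreceptor gene most members had at least 2 UMIs: 72 of 275 members of the CD4-Cre library and 25 of 98 of the F/F library had exactly 1 Cd8b1 UMI, and 60 and 19 had exactly 1 Cd8a UMI. Just outside, 47 T cells of the CD4-Cre library and 20 of the F/F library had Cd8b1 without Cd8a, Trdc removed 8 and 4 cells and Foxp3 2 and 1, and 40 and 20 cells failed the immunoglobulin limit alone.

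The marker genes that the rule had not used were detected in most members. They are compared here with B cells only, so the shares do not set the members apart from other T cells. Transcripts of other cells in the members, among them γδ T cell markers, are given below. Ccl5 was detected in 98.5% of members of the CD4-Cre library and 94.9% of members of the F/F library, and Nkg7, which encodes a cytotoxic granule protein, in 98.9% and 98.0%. Trac, the constant region of the T cell receptor α chain, was detected in 80.7% and 79.6%, and Trbc2, a constant region of the β chain, in 97.5% and 99.0%. B cells, which should lack these transcripts and were deeper (medians of 19301 and 16241 UMIs, 132 and 77 cells), had a Ccl5 UMI in 21.2% and 15.6% of cells, Nkg7 in 2.27% and 3.90%, and Trac in 9.09% and 2.60%. Ccr7, a lymph node homing receptor gene of naive cells, had 1 UMI in the CD4-Cre library and 3 in the F/F library, and S1pr1, a tissue exit receptor gene, had 10 and 2.

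CD8 αβ T cells made up a larger part of the CD4-Cre library under each of 3 denominators. They were 2.20% of kept cells in the CD4-Cre library (95% interval 1.95 to 2.47) and 0.778% in the F/F library (0.632 to 0.948), a ratio of 2.82 (2.23 to 3.59). Plasma cells held 54.6% of the kept cells in the CD4-Cre library and 66.2% in the F/F library, and among cells under the immunoglobulin limit the ratio was 2.07 (1.64 to 2.63). Of kept T cells the members were 8.53% and 4.88%, a ratio of 1.75 (1.38 to 2.22). CD4 T cells, chosen by a like rule, were also a larger part of T cells in the CD4-Cre library, at 32.7% against 21.2% (ratio 1.54, 1.38 to 1.73). That rule required a Cd4 UMI, and Cd4 was higher in each T cell class of the CD4-Cre library, as given below. How far the level of Cd4 enters this share was not tested. T cells with Cd8a but no Cd8b1 were 5.77% and 5.33% (1.08, 0.848 to 1.39), and γδ T cells 21.7% and 25.1% (0.866, 0.771 to 0.973). With 1 pool per genotype, the genotype and the make-up of the pools cannot be told apart.

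**Figure D1:**
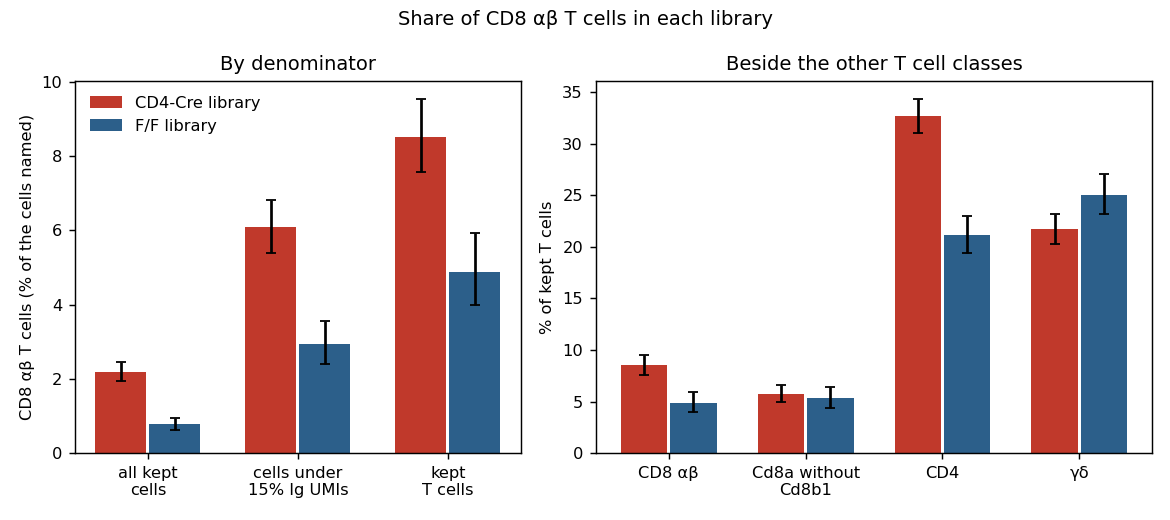
Share of CD8 αβ T cells in percent of 3 denominators (left) and share of 4 T cell classes in percent of kept T cells (right), with bars for the CD4-Cre and the F/F library and exact 95% intervals for counting error. The CD8 αβ share was 8.53% of T cells in the CD4-Cre library and 4.88% in the F/F library, while the shares of Cd8a cells without Cd8b1 lay at 5.77% and 5.33%. The CD4 class required a Cd4 UMI, a gene that was higher in the CD4-Cre library.

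Gramd1a, the targeted gene, lies on chromosome 7 (31130127 to 31155896, minus strand, GRCm38). It had 57.8 CPM (UMIs scaled to the summed UMIs of all genes in a library's members) in the CD4-Cre library and 91.0 CPM in the F/F library, a ratio of 0.635 (0.435 to 0.935) that rested on 78 and 46 UMIs. A Gramd1a UMI was found in 22.9% of members of the CD4-Cre library and 30.6% of members of the F/F library. Without the 5% of members that held most of its UMIs the ratio was 0.621 and its interval reached 1 (0.386 to 1.01). Among members with at least 2 Cd8b1 UMIs the log2 ratio of Gramd1a was -0.05 (-0.74 to 0.68), against -0.66 over all members, and with immunoglobulin under 5% it was -0.52 with an interval that also reached 1. Which exons are floxed is not stated in the labels, and 3′ tags outside the deleted part do not measure the deletion, so these counts check neither the deletion nor the labels. Gramd1b, which encodes Aster-B, was at 93.3 CPM in the CD4-Cre library and 103 CPM in the F/F library, and Gramd1c, which encodes Aster-C, had 9 and 4 UMIs.

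Across all genes with at least 50 UMIs in the members of both libraries together, 325 of 4577 were at least 1.5-fold higher in the CD4-Cre library with an interval that left out 1, and 129 were at least 1.5-fold lower. These were 7.1% and 2.82% of the genes tested, and the median of all was a log2 ratio of 0.09. Centred on that median, the counts were 218 higher and 194 lower. These counts apply to 2 pools and are no test of genotype. They are the background for the gene lists, whose members are called higher or lower below only past the same limit.

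Sterol genes were sparse in the members, and the counts below stand beside 7.1% higher and 2.82% lower of all genes tested. Of the 9 measured genes of the Aster family and sterol transport list, Gramd1a was lower and none was higher, and the list's median log2 ratio was -0.04. The list of cholesterol synthesis genes and SREBP2 targets held 26 genes, of which 6 had enough UMIs. Fdps, which encodes farnesyl diphosphate synthase, was lower at 40.0 CPM in the CD4-Cre library and 75.2 CPM in the F/F library (ratio 0.532, 0.345 to 0.828), but its interval reached 1 without the 5% highest cells. Cyp51, Ebp, Insig1 and Srebf2 had ratios of 0.674 to 0.940 and intervals that reached 1, and the list's median log2 ratio was -0.44. Of 5 measured LXR targets and fatty acid synthesis genes, Mylip, an LXR target that encodes a ligase for the LDL receptor, was higher, with 55 UMIs in the CD4-Cre library and 7 in the F/F library, but its interval reached 1 among members with at least 2 Cd8b1 UMIs. Abcg1, a cholesterol exporter under LXR control, had 31 and 2 UMIs and fell short of the minimum.

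Several transcripts were higher in the members than in the 3 other T cell classes in both libraries, which is a description, since the rule chose the cells. Ms4a4b, a T cell membrane protein gene, was at 648 CPM in the CD4-Cre library and 483 CPM in the F/F library, while its level in the other T cell classes lay between 111 and 201 CPM. Gzmk, encoding granzyme K, was at 224 and 125 CPM in members and between 36.2 and 89.3 CPM in the other classes. Thy1 was at 275 and 279 CPM, against 94.6 to 162 CPM. Ly6c2, a surface antigen of memory and recirculating CD8 T cells, was at 90.3 and 81.1 CPM, against 7.62 to 29.7 CPM. Gramd3, whose product shares the GRAM domain with the Aster proteins, was at 418 and 291 CPM, against 93.2 to 163 CPM.

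Other transcripts were lower in the members than in Cd8a cells without Cd8b1 and in γδ T cells. CD4 T cells are not part of this comparison. Gzma, the granzyme A gene, was at 2469 CPM in members of the CD4-Cre library and 2698 CPM in those of the F/F library, against 8699 and 6860 CPM in Cd8a cells without Cd8b1 and 8310 and 10196 CPM in γδ T cells. Ikzf2, which encodes the transcription factor Helios, was at 131 and 235 CPM in members, against 869 and 760 CPM in Cd8a cells without Cd8b1 and 830 and 902 CPM in γδ T cells. Gzma also had 5387 and 5884 CPM in free RNA, read from barcodes of 10 to 100 UMIs, while B cells had 7.66 and 9.95 CPM.

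The members fell into cells with and without an Itgae UMI, and the mix differed between the libraries. Itgae (chromosome 11, 73090583 to 73147446) was detected in 122 of 275 members of the CD4-Cre library, 44.4% (38.4 to 50.5), and in 63 of 98 members of the F/F library, 64.3% (54.0 to 73.7). The ratio of the shares was 0.690 (0.505 to 0.951). With every member thinned to 1500 UMIs the shares were 26.9% and 37.8%, and the interval of their ratio of 0.713 reached 1 (0.474 to 1.09), as it did among cells with at most 5% mitochondrial UMIs (0.698, 0.489 to 1.01). B cells had an Itgae UMI in 5.30% and 3.90%. Detection depends on depth: members with Itgae had medians of 4464 UMIs in the CD4-Cre library and 4657 in the F/F library, those without it 4051 and 3805.

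A set of genes separated the cells with Itgae from those without it in both libraries, although most calls were not shared. Of 1428 genes with at least 50 UMIs in each library, 38 (2.66%) were at least 1.5-fold higher in the cells with Itgae in both, 12 (0.84%) were at least 1.5-fold lower in both, and 4 (0.28%) went in opposite directions. The 38 were 33.0% of the 115 such genes called higher in the CD4-Cre library and 35.8% of the 106 in the F/F library, and the 12 were 36.4% of the 33 and 20% of the 60 called lower. Within 1 library the higher and lower shares were 8.1% and 3.68% of 3780 genes in the CD4-Cre library and 7.68% and 4.26% of 1433 genes in the F/F library. The libraries are separate pools, but the genes named were chosen after their values were seen. Ikzf2 was at 229 CPM in cells with Itgae and 38.8 CPM in cells without it in the CD4-Cre library (ratio 5.91, 3.90 to 9.26), and at 329 and 37.1 CPM in the F/F library (8.87, 3.95 to 24.7). Gzma was at 3841 and 1178 CPM in the CD4-Cre library (3.26, 3.01 to 3.53) and at 3669 and 637 CPM in the F/F library (5.76, 4.71 to 7.12). Cd7, a T and NK cell surface protein gene, was at 556 and 191 CPM in the CD4-Cre library and at 745 and 179 CPM in the F/F library. Fewer genes of each list were measured in the F/F library. Of 14 homing and residence genes in the CD4-Cre library, 6 were higher and 2 lower in cells with Itgae. In the F/F library 0 of 8 passed in either direction, while the list's median log2 ratios were 0.43 and 0.34. For the NK receptors the medians were -0.34 over 5 genes in the CD4-Cre library and 0.33 over 3 in the F/F library. Since the genes measured and the depth differ, these list values do not show a difference between the libraries.

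Xcl1, which encodes a chemokine that draws cross-presenting dendritic cells, belonged to the same group. It was at 119 CPM in cells with Itgae and 38.8 CPM in cells without it in the CD4-Cre library, and at 375 and 98.9 CPM in the F/F library. St6galnac3, Inpp4b, Nrip1, Cd96, Zfp36l1 and Ube2c completed the 10 named genes on this side, with ratios between 1.88 and 3.96 in the CD4-Cre library and between 1.97 and 4.33 in the F/F library. All 10 kept the direction in both libraries without the 5% of cells that held most UMIs of the gene. Tcrg-C2, a constant region of the T cell receptor γ chain that αβ T cells can also transcribe, was at 87.1 and 27.3 CPM in the CD4-Cre library and at 125 and 30.9 CPM in the F/F library.

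Ctla2a, Ccl5 and Cd28 led the genes that were higher in cells without Itgae. Ctla2a, a cysteine protease inhibitor gene, was at 97.8 CPM in cells with Itgae and 552 CPM in cells without it in the CD4-Cre library (ratio 0.177, 0.134 to 0.231), and at 87.3 and 253 CPM in the F/F library (0.344, 0.208 to 0.565). Ccl5 was at 10182 and 15983 CPM in the CD4-Cre library (0.637, 0.618 to 0.657) and at 8036 and 14814 CPM in the F/F library (0.542, 0.513 to 0.573). Cd28, the costimulatory receptor for B7 ligands, was at 435 and 695 CPM in the CD4-Cre library and at 279 and 476 CPM in the F/F library. Gramd3, Cd47, Emp3, Gm2682, Iqgap2, Dut and Hist1h1b were the others named on this side, of which Dut and Hist1h1b did not keep the direction in both libraries without the 5% highest cells.

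Less abundant genes on this side had under 50 UMIs in the F/F library. Ly6c2 was found in 7.38% of cells with Itgae and 27.5% of cells without it in the CD4-Cre library, and in 4.76% and 28.6% in the F/F library. Klrk1, encoding the activating receptor NKG2D, was found in 2.46% and 19.0% in the CD4-Cre library and in none of 63 and 11.4% of 35 cells in the F/F library. Gpr183, which encodes a receptor for oxysterols that guides lymphocytes in tissue, was found in 26.2% and 41.2% in the CD4-Cre library and in 11.1% and 25.7% in the F/F library. B cells, which use GPR183 themselves, had a Gpr183 UMI in 26.5% and 29.9%, while for Klrk1 the B cell shares were 1.52% and 0%.

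**Figure D2:**
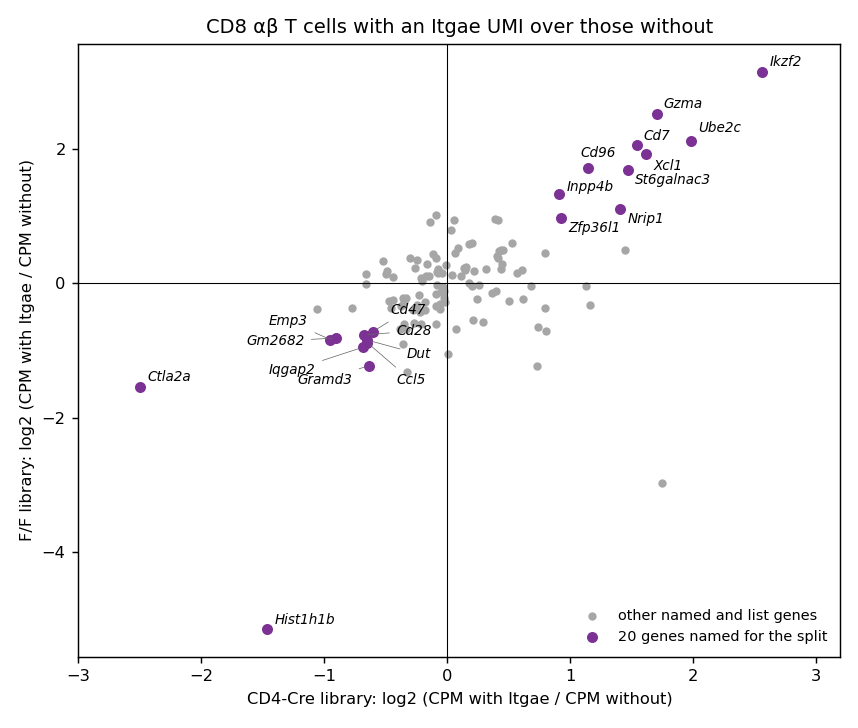
Log2 ratio of CPM in CD8 αβ T cells with an Itgae UMI over those without one, in the CD4-Cre library (horizontal) and the F/F library (vertical), for list and named genes with at least 50 UMIs in each library. Purple points mark the 20 genes named in the text, of which 10 lie high in both libraries, Ikzf2 farthest at 5.91-fold and 8.87-fold, and 10 low in both.

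Between the genotypes, Gzmb, Gzmk, Fasl, Tnfsf10 and Rab27a were higher in members of the CD4-Cre library. They were 5 of 14 measured cytotoxic effector genes, of which none was lower and 9 did not pass, beside 7.1% and 2.82% of all genes tested, and the list's median log2 ratio was 0.25. Gzmb, which encodes granzyme B, was at 364 CPM in the CD4-Cre library and 178 CPM in the F/F library (ratio 2.05, 1.63 to 2.59), with a UMI in 34.9% and 24.5% of members. Gzmk was at 224 CPM and 125 CPM (1.79, 1.36 to 2.39), in 49.1% and 32.7% of members, but was under 1.5-fold among members with at least 2 Cd8b1 UMIs (log2 ratio 0.53, 0.11 to 0.97). No B cell of either library had a Gzmk UMI, and 2.27% and 0% had a Gzmb UMI. Fasl, which encodes the death ligand of Fas, was at 123 CPM in the CD4-Cre library and 77.2 CPM in the F/F library.

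Tnfsf10, which encodes the death ligand TRAIL, had 70 UMIs in the CD4-Cre library and 12 in the F/F library, and Rab27a, needed for granule docking, had 63 and 11. Without the 5% highest cells these 5 genes still were higher, with ratios of 1.96 to 2.76, and Serpinb6b, a granzyme inhibitor gene, was lower (0.645). Prf1, encoding perforin, was at 48.9 CPM in the CD4-Cre library and 31.7 CPM in the F/F library with an interval that reached 1. Nkg7 (ratio 1.11), Srgn, Ctsw and Cst7, further granule and secretory genes, lay within 1.5-fold. Gzma was at 2469 and 2698 CPM (0.915, 0.859 to 0.975), in 37.8% and 32.7% of members. For Gzma the B cell shares were 12.1% and 15.6%.

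The pooled Gzma ratio differed from the ratios within the Itgae subsets. Within cells with Itgae its ratio was 1.05 (0.978 to 1.12), and within cells without Itgae it was 1.85 (1.51 to 2.29), with 1178 CPM in the CD4-Cre library and 637 CPM in the F/F library. The pooled ratio lies below both. Gzma was higher in cells with Itgae in each library, and these cells were 44.4% of members in the CD4-Cre library and 64.3% in the F/F library. The highest 5% of members, 14 cells in the CD4-Cre library and 5 in the F/F library, held 2406 of 3334 and 976 of 1364 Gzma UMIs, 72.2% and 71.6%. For Gzmb the ratio was 2.86 (2.14 to 3.87) within cells with Itgae and 1.28 (0.884 to 1.90) within those without it. The differences between the subsets were not tested.

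S100a4, S100a6, Lgals1, Vim, Crip1 and Anxa2 were lower in members of the CD4-Cre library. They were 6 of 14 measured genes of the S100, galectin and annexin list, of which none was higher and 8 did not pass, beside 2.82% and 7.1% of all genes tested, and the list's median log2 ratio was -0.50. S100a4 (chromosome 3, 90603771 to 90606045), a calcium-binding protein gene of motile and memory T cells, was at 76.3 CPM in the CD4-Cre library and 281 CPM in the F/F library (ratio 0.271, 0.209 to 0.352). Lgals1, encoding galectin-1, was at 281 and 811 CPM (0.346, 0.300 to 0.399). Vim, which encodes vimentin, was at 154 and 317 CPM, Crip1, a LIM domain protein gene, at 427 and 801 CPM, S100a6 at 230 and 524 CPM and Anxa2, encoding annexin A2, at 48.9 and 105 CPM. S100a10, the partner of annexin A2, lay closer, at 681 and 762 CPM.

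For most of these genes the shares of members with a UMI differed less than the levels. Lgals1 was detected in 42.2% of members of the CD4-Cre library and 38.8% of the F/F library, S100a6 in 32.7% and 30.6%, and Crip1 in 67.3% and 66.3%. The highest 5% of members, 14 and 5 cells, held 39.5% of the UMIs of the 6 genes in the CD4-Cre library and 42.02% in the F/F library, and the median member had 3 such UMIs in both. With at least 3 S100a4 UMIs there were 11 members in the CD4-Cre library and 13 in the F/F library, of which 4 and 5 had Itgae. Without the 5% highest cells of each gene, 7 of the 14 genes were lower and none higher, beside 3.71% and 6.55% of all genes under the same limit.

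**Figure D3:**
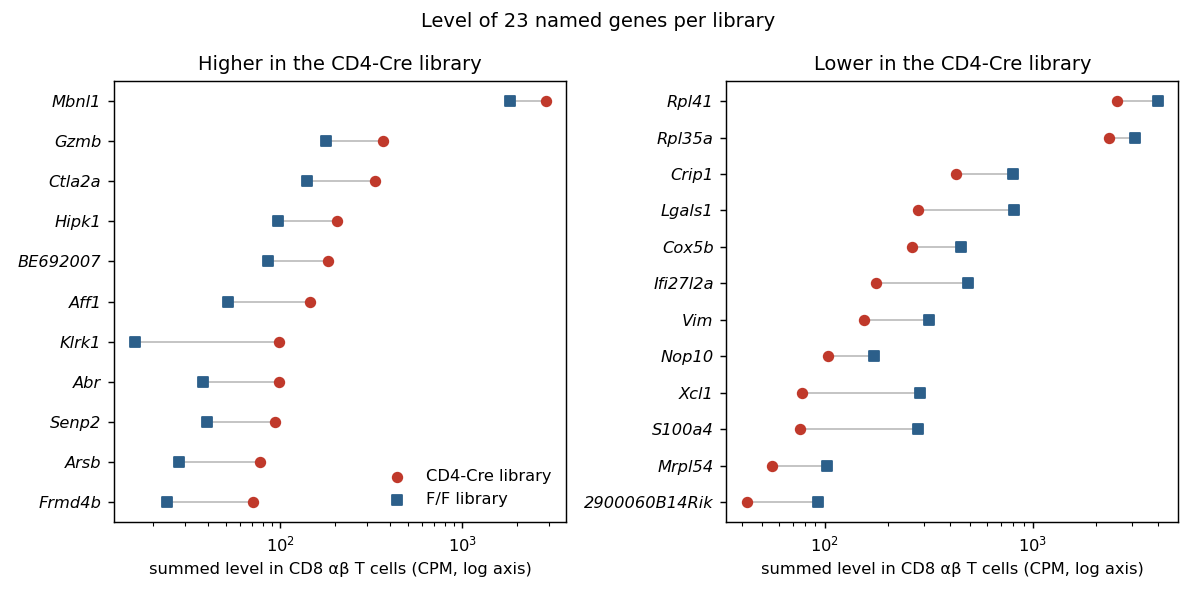
Summed level in CPM (log axis) of 11 of the 12 genes higher and of 12 genes lower in the CD4-Cre library, in CD8 αβ T cells, with circles for the CD4-Cre and squares for the F/F library. The widest gaps are those of Klrk1 at 98.5 and 15.8 CPM on the left and of S100a4 at 76.3 and 281 CPM and Xcl1 at 77.7 and 287 CPM on the right.

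Among chemokines and cytokines, 1 of 8 measured genes was lower and none higher, beside 2.82% and 7.1% of all genes tested. Xcl1 was at 77.7 CPM in the CD4-Cre library and 287 CPM in the F/F library (ratio 0.271, 0.209 to 0.351), with a UMI in 19.3% and 31.6% of members and in 1.52% and 0% of B cells. It was lower in cells with Itgae (0.317, 0.237 to 0.424) and in those without (0.392, 0.204 to 0.779). Ccl5 was at 13171 and 10206 CPM (1.29, 1.25 to 1.33), under 1.5-fold. Ifng, the type 1 effector cytokine, was at 46.7 and 47.5 CPM (0.982, 0.605 to 1.64). Ltb, a lymphotoxin gene, was at 311 and 307 CPM. Il2, Il17f, Il22 and Csf2 had no UMI in the members of either library.

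Of 5 measured NK receptor genes, Klrk1 was higher and none lower, beside 7.1% and 2.82% of all genes tested. Klrk1 (chromosome 6, 129610323 to 129623864) had 133 UMIs in 11.6% of members of the CD4-Cre library and 8 UMIs in 4.08% of members of the F/F library, a ratio of 6.22 (3.07 to 14.7). Its UMIs were gathered in few cells, with 76 of 133 in 5 members of the CD4-Cre library. Thinned to 1500 UMIs per cell, 6.55% (3.93 to 10.1) and 2.04% (0.248 to 7.18) of members had a Klrk1 UMI, and the intervals of these shares overlap. Cd160, a receptor of gut resident lymphocytes, was at 440 and 483 CPM, Klrd1, encoding CD94, at 196 and 174 CPM, and Hcst, the adaptor of NKG2D, at 546 and 570 CPM.

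Gpr183 was at 124 CPM in the CD4-Cre library and 59.3 CPM in the F/F library (ratio 2.08, 1.41 to 3.19), with a UMI in 34.5% and 16.3% of members. It was the only measured gene of the oxysterol list. Ch25h and Cyp7b1, which make and degrade oxysterol ligands, had no UMI in members, and Hsd3b7 and Cyp27a1 had 2 each in the CD4-Cre library and none in the F/F library.

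The interferon list split. Of 11 measured genes, 4 were higher and 1 lower, beside 7.1% and 2.82% of all genes tested. Irf1, a transcription factor induced by interferons, was at 231 CPM in the CD4-Cre library and 127 CPM in the F/F library (1.82, 1.39 to 2.43). Ly6a, encoding Sca-1, was at 109 and 67.3 CPM, and Gbp7, a guanylate-binding protein gene, at 96.2 and 63.3 CPM. Ifi27l2a, an interferon-induced gene, was lower at 176 and 487 CPM (0.362, 0.302 to 0.435). Ly6a had 35 UMIs in the CD4-Cre library and 1 in the F/F library among cells with Itgae, and a ratio of 0.789 (0.531 to 1.20) among cells without it.

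Most T cell receptor and costimulation genes did not pass, as was so for all genes tested, of which 7.1% were higher and 2.82% lower. Of 16 measured, Cd28 was higher at 569 CPM in the CD4-Cre library and 342 CPM in the F/F library (1.66, 1.41 to 1.97), though under 1.5-fold among members with at least 2 Cd8b1 UMIs (log2 ratio 0.56), and Cd5, a damping receptor, was lower at 70.3 and 107 CPM (0.658, 0.467 to 0.937), with an interval that reached 1 without the 5% highest cells. Trac (ratio 1.13), Trbc1 (1.12), Trbc2 (0.945), Lck, Lat and Zap70 lay within 1.5-fold, as did the rule's own genes Cd8a (1.04) and Cd8b1 (1.09).

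Of 16 measured homing and residence genes, 3 were higher and none lower, beside 7.1% and 2.82% of all genes tested. Itga1, the α chain of a collagen-binding integrin, was at 251 CPM in the CD4-Cre library and 166 CPM in the F/F library. Itgal, the α chain of LFA-1, was at 210 and 134 CPM. Prdm1, encoding the transcription factor Blimp-1, had 45 and 5 UMIs. Without the members that had a Cd4 UMI none of 15 measured genes passed: Itga1 and Itgal were under 1.5-fold, at log2 ratios of 0.47 and 0.58, and Prdm1, at 1.64, fell below the UMI minimum. With immunoglobulin under 5%, and likewise with at most 10000 UMIs, only Itgal of the 3 was called. Itgae itself was at 261 and 370 CPM (0.707, 0.590 to 0.848), under 1.5-fold over all members, and past the limit at 0.647 (0.526 to 0.799) without the 5% highest cells. Cd69, which holds cells in tissue, was at 541 and 469 CPM. Ccr9, the gut homing receptor, was at 84.4 and 103 CPM, Cxcr6 at 101 and 96.9 CPM and Rgs1 at 467 and 455 CPM.

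Among 11 measured lineage transcription factors, 3 were higher and 2 lower, beside 7.1% and 2.82% of all genes tested. Tbx21, encoding T-bet, had 75 UMIs in the CD4-Cre library and 16 in the F/F library (1.75, 1.01 to 3.23), Gata3 had 50 and 7, and Maf 59 and 4. Ikzf2 was lower at 131 and 235 CPM (0.557, 0.439 to 0.708), but its ratio within cells without Itgae was 1.05. Zeb2 was lower at 37.8 and 65.3 CPM, and its ratio was 1.19 without the 5% highest cells. Under that setting Tbx21 (0.820 to 4.43) and Maf also reached 1 with their intervals, and only Gata3 and Ikzf2 were still called. Without the members that had a Cd4 UMI none of 9 measured genes was higher and only Ikzf2 was lower, and Gata3 (log2 ratio 2.11) and Maf (2.96) fell below the UMI minimum. Among members with at least 2 Cd8b1 UMIs the interval of Ikzf2 reached 1 (log2 ratio -0.39, -0.85 to 0.08).

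In the other lists few genes passed, beside 7.1% higher and 2.82% lower of all genes tested. Of 10 measured receptor activation genes, Nr4a3 was higher (102 UMIs in the CD4-Cre library and 20 in the F/F library) and Irf4 was lower, at 40.7 and 89.0 CPM. Of 12 immediate early and dissociation genes, Jun at 95.5 and 182 CPM and Btg2 at 419 and 643 CPM were lower, while Fos was at 159 and 148 CPM. Of 10 measured naive and central memory genes, Klf3 was higher, at 189 and 111 CPM. Among members with at least 2 Cd8b1 UMIs, Jun, Btg2 and Klf3 did not pass, at log2 ratios of -0.48, -0.46 and 0.54. Of 12 replication and mitosis genes, Mki67 was higher with 96 and 16 UMIs, although it was detected in 7.27% and 7.14% of members, and its ratio was 1.14 (0.204 to 11.6) without the 5% highest cells. A UMI of Mki67 or Top2a was found in 16.0% (11.9 to 20.9) and 15.3% (8.83 to 24.0) of members. None of 6 checkpoint receptor genes, 13 glycolysis genes and 8 cytokine receptor genes passed in either direction. Ctla4 was at 435 and 441 CPM, Gapdh at 719 and 900 CPM and Il7r at 153 and 170 CPM.

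**Figure D4:**
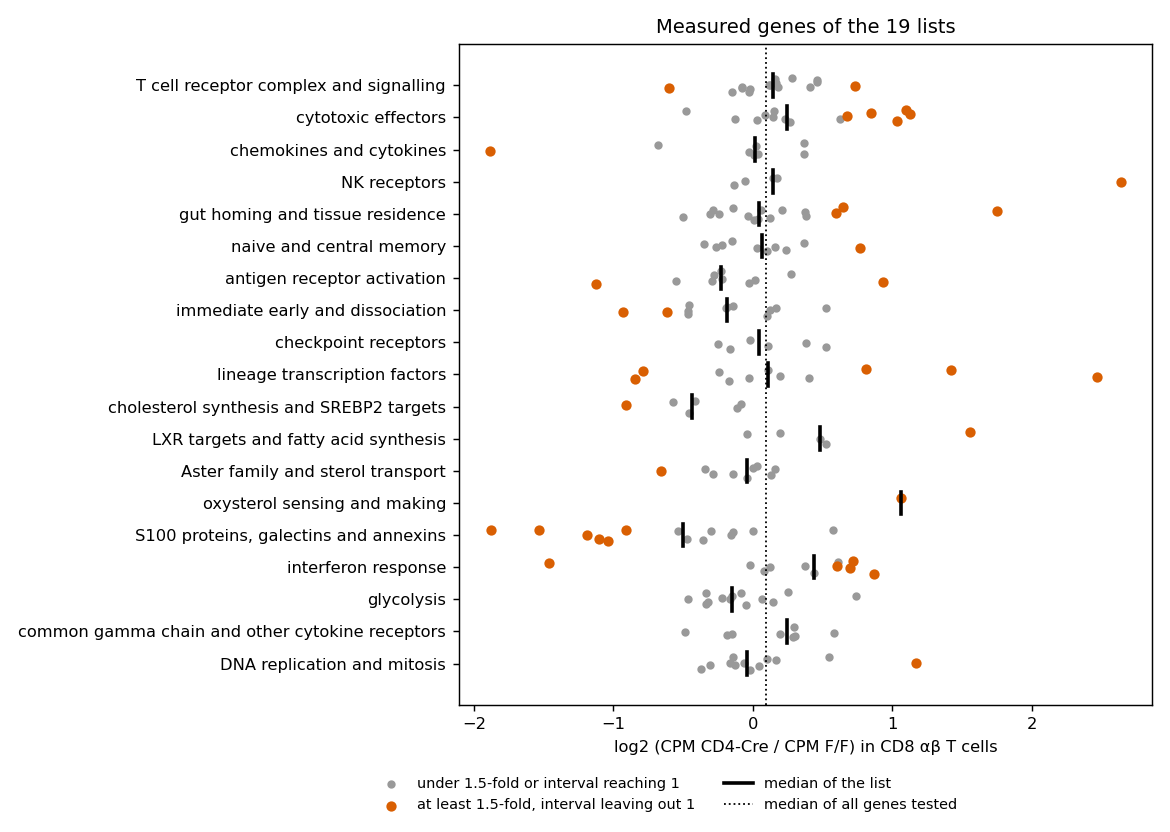
Log2 ratio of CPM, CD4-Cre over F/F library, in CD8 αβ T cells for each gene of 19 lists with at least 50 UMIs, where orange points are at least 1.5-fold with an interval leaving out 1, black ticks are list medians and the dotted line at 0.09 is the median of all genes tested. Orange points lie on the right for 5 cytotoxic effectors and on the left for 6 S100, galectin and annexin genes.

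Of the 12 genes named as higher by the size rule, only Klrk1 and Gzmb were genes of the lists. Aff1, a transcription elongation factor gene, was at 145 CPM in the CD4-Cre library and 51.4 CPM in the F/F library, Hipk1, a nuclear kinase gene, at 205 and 96.9 CPM, and Senp2, a SUMO protease gene, at 94.0 and 39.6 CPM. Frmd4b, Abr, Arsb and BE692007 had ratios of 2.14 to 2.96. Mbnl1, a splicing regulator gene, was at 2865 and 1816 CPM. Ctla2a was at 332 and 140 CPM (2.36, 1.84 to 3.08). Among the 12 named as lower, beside S100a4, Lgals1, Ifi27l2a, Xcl1, Crip1 and Vim, stood Cox5b, a subunit gene of cytochrome c oxidase, at 262 and 453 CPM. Rpl41, Rpl35a, Mrpl54, Nop10 and 2900060B14Rik completed them, with ratios of 0.454 to 0.747.

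Many of these ratios lay on the same side of 1 in other cell classes. The same counts were not made over all genes, so no background share stands beside them. Plasma cells held 125501962 UMIs in the CD4-Cre library and 154241740 in the F/F library, B cells 2741980 and 1407727. More UMIs give narrower intervals, so the counts do not rank the classes. Of the 12 higher genes, 10 were above 1 in plasma cells and 8 of those had an interval above 1, in γδ T cells it was 10 and 8, and in B cells 6 and 3. In Cd8a cells without Cd8b1 it was 12 and 5, and in CD4 T cells 9 and 6. Of the 12 lower genes, 9 were below 1 in plasma cells, all 9 with an interval below 1, in γδ T cells 11 and 9, and in B cells 8 and 7. In Cd8a cells without Cd8b1 it was 9 and 7, and in CD4 T cells 11 and 10. Mbnl1 had a ratio of 1.58 in the members, 1.63 in Cd8a cells without Cd8b1, 1.87 in CD4 T cells, 1.56 in γδ T cells, 1.69 in B cells and 1.67 in plasma cells. Rpl41 lay between 0.633 and 0.710 in all 6. For Ifi27l2a the ratio was 0.362 in members and between 0.538 and 0.675 in the other 5.

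For other named genes the ratio varied between the T cell classes. Gzmb was at 2.05 in members, 1.20 in Cd8a cells without Cd8b1, 0.810 in CD4 T cells and 0.963 in γδ T cells. S100a4 was at 0.271 in members, 0.613 (0.265 to 1.41) in Cd8a cells without Cd8b1, 1.24 (1.10 to 1.39) in CD4 T cells and 0.840 in γδ T cells. Xcl1 was at 0.271 in members, 0.267 (0.223 to 0.319) in Cd8a cells without Cd8b1, 0.418 (0.363 to 0.482) in CD4 T cells and 1.05 (0.955 to 1.15) in γδ T cells. Klrk1 was at 1.26 in Cd8a cells without Cd8b1, 1.09 in CD4 T cells and 2.31 (1.98 to 2.70) in γδ T cells. The differences between classes were not tested.

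**Figure D5:**
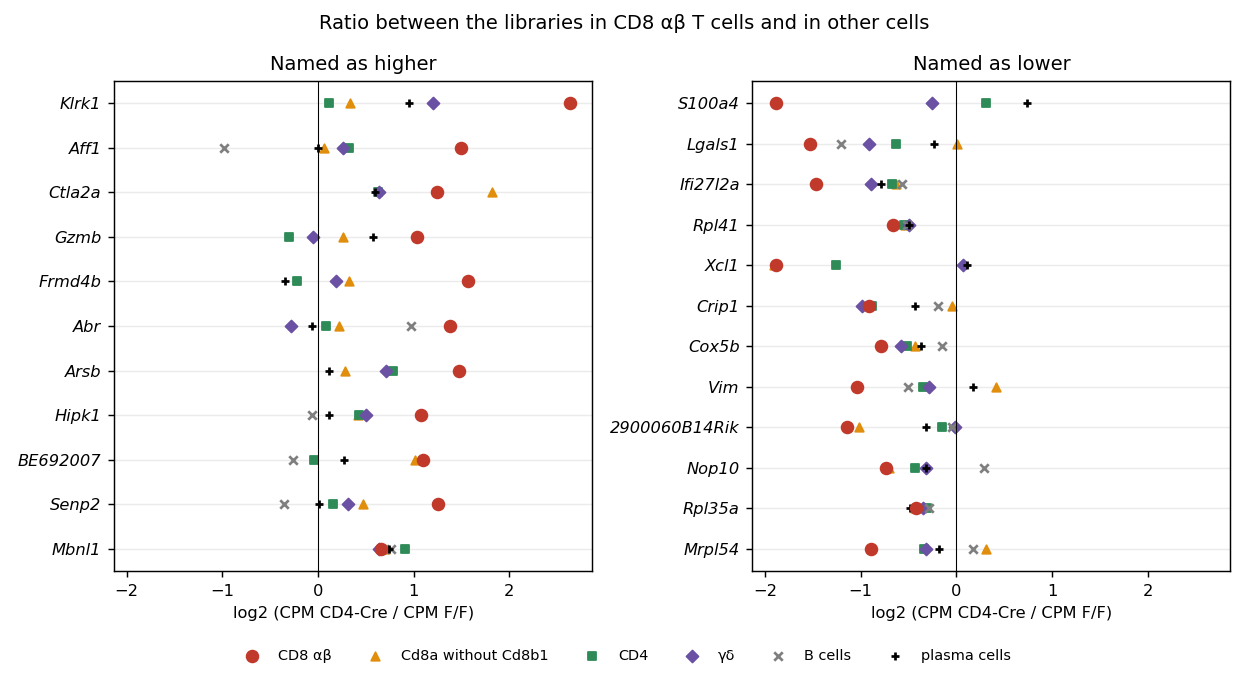
Log2 ratio of CPM, CD4-Cre over F/F library, for 11 of the 12 genes named as higher (left) and the 12 named as lower (right), in CD8 αβ T cells (large red circles) and 5 other cell classes, where the 2 libraries of a class held at least 50 UMIs of the gene together. Mbnl1 and Rpl41 have their points close together in every class, while Gzmb, at 2.05-fold in CD8 αβ T cells, lies at 0.810-fold in CD4 T cells and 0.963-fold in γδ T cells.

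All 24 named genes kept their direction both within the cells with Itgae, where Klrk1 had only 7 UMIs in the CD4-Cre library and 0 in the F/F library, and within those without it. The 24 were chosen by size from these same cells, so this agreement was largely set by the choice and is no independent check. The intervals left out 1 for 9 of the 12 higher and all 12 lower genes within cells with Itgae, and for 10 and 10 within cells without it. Ctla2a, which was higher in cells without Itgae in both libraries, had a ratio of 1.12 (0.715 to 1.79) within cells with Itgae and 2.18 (1.57 to 3.08) within those without. Over all genes tested, 8.32% were higher and 2.49% lower within cells with Itgae, and 5.77% and 3.97% within cells without it.

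Cd4 transcripts were found in more members of the CD4-Cre library. There were 65 Cd4 UMIs in 27 of 275 members (9.82%, 6.57 to 14.0) of the CD4-Cre library and 1 UMI in 1 of 98 members (1.02%, 0.0258 to 5.55) of the F/F library, a CPM ratio of 24.3 (4.22 to 976). B cells had a Cd4 UMI in 3.79% and 10.4%. Cd4 was also higher in the other T cell classes of the CD4-Cre library: at 1093 and 344 CPM in CD4 T cells, where the rule required it, at 92.6 and 22.9 CPM in Cd8a cells without Cd8b1, and at 63.7 and 10.4 CPM in γδ T cells. Free RNA held 18.2 and 8.84 CPM of Cd4. Doublets with CD4 T cells and transcripts of the transgene were not tested. Without the members that had a Cd4 UMI, 291 genes were higher and 131 lower, and the share of kept cells was 1.98% and 0.770%.

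Transcripts of other cells were present at levels that differed between the libraries. Over 6 macrophage and monocyte markers, members held 184 CPM in the CD4-Cre library and 31.7 CPM in the F/F library, detected in 13.5% and 13.3%, and 211 of the 248 UMIs in the CD4-Cre library lay in 1 cell. Over 5 B cell markers it was 85.9 and 43.5 CPM, with 70 of 116 UMIs in 1 cell. The MHC class II genes H2-Ab1 (ratio 2.95) and H2-Aa (2.08) were called higher over all members, but at 1.01 and 1.08 without the 5% highest cells their intervals reached 1. Over 5 γδ T cell markers the members held 110 and 186 CPM, detected in 28.7% and 43.9%. Trdc was at 0 by the rule and Tcrg-C2 was lower (0.593). Over 6 markers of innate lymphoid and innate-like cells the members held 294 CPM in the CD4-Cre library and 417 CPM in the F/F library, detected in 49.8% and 55.1%. Over 7 pancreas genes the members held 16.3 CPM in the CD4-Cre library and 667 CPM in the F/F library, and over 4 stomach genes 257 and 31.7 CPM. Those genes also differed in free RNA, and 24 genes whose free RNA differed over 4-fold were not eligible to be named. How far such RNA enters the ratios of T cell genes was not tested.

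Receptor variable segments were sparsely covered by the 3′ tags. A Trbv UMI was found in 14.2% of members of the CD4-Cre library and 16.3% of the F/F library, and a Trav UMI in 13.5% and 17.3%. Whether most cells shared a segment could therefore not be seen. These were 39 and 16 members with a Trbv UMI, and 37 and 17 with a Trav UMI. Trbv12-2, Trbv17 and Trbv19 were found in 6 of the 39 members each in the CD4-Cre library, and in 1, 0 and 0 of the 16 in the F/F library. Trbv13-2 was found in 4 members of the CD4-Cre library and 5 of the F/F library. Trav16 was found in 10 of 37 members of the CD4-Cre library (27.0%, 13.8 to 44.1) and in 1 of 17 of the F/F library. Near-identical Trav copies exist in the mouse locus, so assignment between them is uncertain.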

How the data were processed

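Single cells were measured with the 10x Genomics 3′ assay in 2 libraries, 1 per genotype. The deposited counts are whole UMIs per gene and barcode, made by the authors with Cell Ranger 7.2.0 per the file headers, on mm10 (GRCm38) per the submitters' processing notes. The deposited matrices hold every barcode, and Seurat 5.0.1, also named in those notes, was not used here. The libraries held 200580083 UMIs in 2270301 barcodes (CD4-Cre) and 222838658 UMIs in 2307624 barcodes (F/F).

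Barcodes with at least 1000 UMIs, 500 genes and at most 10% mitochondrial UMIs were kept. Members followed the transcript rule in the text, and 3 other T cell classes and B cells followed like rules. The members, lists and the rule for naming genes were chosen with earlier results of these data known. UMIs were summed over members and divided by the library's member total (CPM), and the ratio of CPM carries an exact 95% interval from the binomial split of UMIs, which treats UMIs as independent. Shares carry exact Clopper-Pearson intervals. UMIs of 1 cell are not independent, so these intervals are too narrow for genes held by few cells. A count of 0 was read as allowing 3 counts. A gene was called at 1.5-fold or more with an interval leaving out 1 and at least 50 UMIs over both libraries.

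Named genes had 100 UMIs and 20 CPM in 1 library, and were the 12 per direction with the interval bound farthest from 1, over all members and without the 5 members of each library with most UMIs of the gene. Immunoglobulin, receptor variable and 24 genes with free RNA differing over 4-fold were left out. A fixed set (Gramd1a, Gramd1b, Gramd1c, Cd4, Cd8a, Cd8b1, Ccl5, Nkg7, Gzma, Gzmb, Ifng, Xcl1, Gpr183, Klrk1, Itgae), up to 4 called genes and the 2 highest of each list, and 10 genes highest over other T cells were also named. Genes at the Itgae split, and list genes beyond these, were named after their values were seen. Values of 4 genes that the rules or lists name are not reported here. Free RNA was read from barcodes with 10 to 100 UMIs. Of 364 list genes 363 matched a symbol in the files, 206 with enough UMIs. Of 40 duplicated symbols the first was used. Positions came from GENCODE M21. The calculation was checked on simulated counts drawn independently for each gene. Such counts lack the gathering of UMIs in few cells, so the check does not cover it. Python 3.11.15, numpy 2.4.6, scipy 1.17.1 and pandas 2.3.3 were used. Alternatives changed filters, scaling, depth and subsets.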

Additional observations from a re-analysis of the deposited data

Results flagged for a closer look

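Some genes had ratios on opposite sides of 1 in CD8 αβ T cells and in another T cell class, both with intervals that left out 1. None of these differences was tested, since each class had 1 pool per genotype.

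Against Cd8a cells without Cd8b1, Vim was at 0.487 in CD8 αβ T cells and 1.34 in that class, Itgae at 0.707 and 1.19, and Gzma at 0.915 and 1.27. Against CD4 T cells, S100a4 was at 0.271 in CD8 αβ T cells and 1.24 in that class, Frmd4b at 2.96 and 0.859, Itgae at 0.707 and 1.25, Ccl5 at 1.29 and 0.923, and Gzmb at 2.05 and 0.810. Against γδ T cells, Abr was at 2.60 in CD8 αβ T cells and 0.823 in that class, and Ccl5 at 1.29 and 0.780. The share of members with an Itgae UMI was 44.4% in the CD4-Cre library and 64.3% in the F/F library. That share and the level of Itgae come from the same counts. The part of the share in the ratios of Itgae and Gzma was not tested, beyond the values of Gzma within each subset.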

How the results depend on the processing

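No paired analysis was possible because each genotype was 1 pool. The share ratio of 2.82 fell to 1.75 over T cells and 2.07 over cells under the immunoglobulin limit, and under the other 7 settings it lay between 2.23 and 2.93. The Itgae share ratio stayed below 1 under all 8 settings, at 0.668 to 0.713, with an interval that reached 1 in 2 of them. Of the counts of 325 higher and 129 lower genes, leaving out the 5 members with most UMIs gave 681 higher and 28 lower, where 5 members are a larger part of the F/F library. Centring gave 194 lower, no UMI minimum 348 lower, thinning to 1500 UMIs 71 higher and 35 lower with 1633 genes tested, cells with Itgae 74 lower and cells without it 144 higher. Thinning and subsets test fewer UMIs, centring shifts the median and no minimum adds genes.

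The log2 ratio of Gzma changed sign to 0.0263 without Cd4 cells, 0.11 under 10000 UMIs, 0.88 without 5 members, 0.27 thinned, 0.0659 with Itgae and 0.89 without it. Zeb2 reversed to 0.37 under 10000 UMIs, 1.46 without 5 members and 0.26 without the 5% highest cells. Thinned, Emp3 was at 0.14, Mki67 at -1.13 and Ifngr1 at -0.0146. With Itgae, Nkg7 was at -0.0242. Without Itgae, Ikzf2 was at 0.0651, Tox at 0.26, Ifngr1 at -0.00152, Cd7 at 0.0925 and Ly6a at -0.34. Without cells holding B cell, macrophage or MHC class II transcripts Ube2c was at 0.76. The cause of these reversals was not tested. The 24 named genes kept their direction in every setting that could be computed for them. They were chosen by size from these same cells, and leaving out 5 members was part of the naming rule. Their kept direction is therefore no independent check. The F/F library's 98 members limit genes under 50 UMIs.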
